A study of Rattus norvegicus with 9 samples.

Results

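Gfap, Vim, Aqp4, S100b, Slc1a2 and Slc1a3 are 6 genes used to mark astrocytes, and they were chosen by name and identifier (ENSRNOG00000002919, ENSRNOG00000018087, ENSRNOG00000016043, ENSRNOG00000001295, ENSRNOG00000005479 and ENSRNOG00000016163, in that order). All 6 were among the 29516 gene identifiers counted in the cerebral cortex of male rats of the inbred BN strain (substrain BN/SsNOlaHSD), and all 6 passed the filter on low counts. The rats had free access to food, carried no genetic change or treatment, and were killed at 6, 12 or 28 months. The RNA of 2 rats was pooled for each library, ribosomal RNA was removed and the rest was sequenced on the SOLiD platform, with 3 libraries labelled for each age. The data ask how these genes change in level between young adult, middle-aged and old cortex.

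Astrocytes are the glial cells that support neurons, take up transmitter and potassium from the space around synapses, and cover blood vessels with their endfeet. Gfap and Vim form their intermediate filaments, and a higher level of both is the classical sign of a reactive astrocyte. S100b is a calcium-binding protein made largely by astrocytes, with some in oligodendrocytes. Aqp4 is the water channel of the endfeet. Slc1a2 (GLT-1) and Slc1a3 (GLAST) carry glutamate out of the synaptic cleft, and in the adult forebrain Slc1a2 does most of this work. Vim is also made by endothelial and ependymal cells, so it is the least specific of the 6.

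The second library labelled 6 months and the third labelled 12 months had the same count file, with 0 of 29516 identifiers differing between them, so that 8 independent libraries remained. The labels do not settle the age of this library. It is called the shared library here, its values are given apart from both ages, and it enters the tests only where that is said. This left 2 libraries at 6 months, 2 at 12 months and 3 at 28 months. Reads counted on genes ranged from 6513376 to 9196951 per library. A single identifier, ENSRNOG00000043866, took 44.0 to 52.4% of them, which left 3431328 to 4891332 reads for all other genes. The 6 genes had between 101 and 6549 reads per library. Levels are given as normalised counts (CPM, a gene's reads relative to all gene reads of its library, after TMM scaling over the 8 libraries). They are not divided by gene length and so cannot be compared between genes.

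The check of tissue and cell type was limited by names, because of the 22 further astrocyte genes listed for it none could be paired with an identifier here. The 6 genes themselves were read in every library, as were all 4 neuronal genes that could be paired, whose summed level was 922 to 1208 CPM. Whole cortex was sequenced, so for every result below fewer cells of a type and less RNA per cell cannot be told apart.

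**Figure D1:**
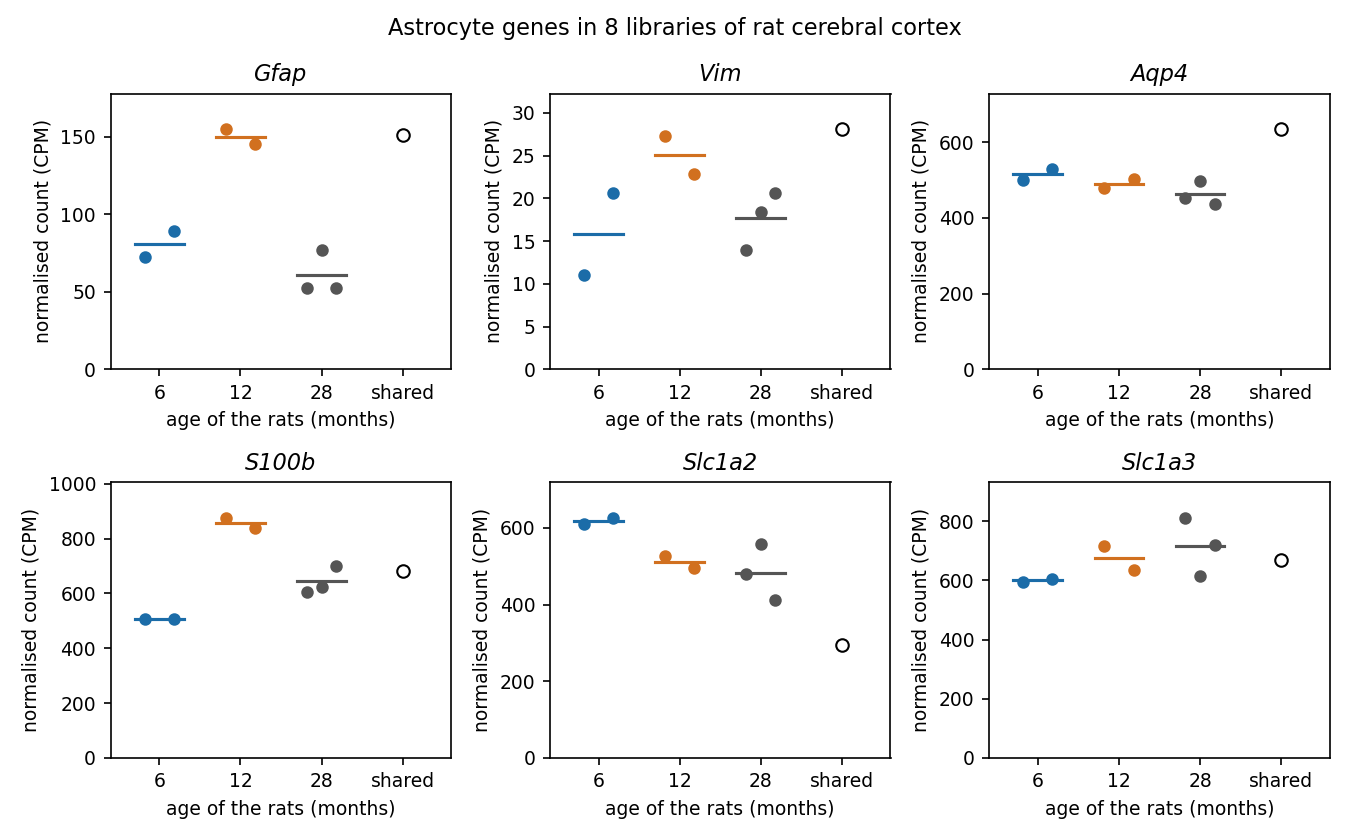
Normalised count (CPM, vertical axis, from 0) of each of the 6 genes in each of 8 libraries, by age in months. Filled points are libraries, bars are the mean of an age (n = 2, 2 and 3), and the open point is the shared library. Gfap was 145 to 155 CPM at 12 months and 52.5 to 89.2 CPM at the other ages, while the ages overlapped more in Aqp4 (437 to 529.5 CPM outside the shared library).

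Gfap, the main filament protein of astrocytes, was the only one of the 6 genes whose level passed the test between ages. It was measured at 72.4 and 89.2 CPM at 6 months (665 and 778 reads), at 155 and 145 CPM at 12 months (1085 and 1053 reads), and at 52.5, 76.9 and 52.7 CPM at 28 months (424, 557 and 349 reads). Both 12-month libraries lay above every 6-month and 28-month library, and the 6-month and 28-month libraries overlapped. The means were 80.8 ± 11.9 CPM (SD, n = 2) at 6 months, 149.7 ± 6.82 CPM (SD, n = 2) at 12 months and 60.7 ± 14.0 CPM (SD, n = 3) at 28 months, so that the order of ages was 28, 6 and 12 months, and the lower neighbours did not differ beyond their spread.

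From 6 to 12 months Gfap rose 1.85-fold, with a log2FC of 0.88 (SE 0.16, 95% interval 0.53 to 1.24, FDR 0.0329 by edgeR's quasi-likelihood test over 15966 genes). A log2FC above 0 is higher at the older age. From 12 to 28 months it fell, with a log2FC of -1.29 (SE 0.19, 95% interval -1.70 to -0.88, FDR 0.0216 by the same edgeR test over 15840 genes). Between 6 and 28 months the log2FC was -0.41 (95% interval -0.86 to 0.03, FDR 0.799 in edgeR), which did not pass. This value moved with the libraries used, to -0.77 with 9 libraries as labelled (95% interval -1.36 to -0.18, FDR 1 in edgeR), -0.25 without 6 months sample 3 (FDR 0.952 in edgeR) and -0.61 without 28 months sample 2 (FDR 0.237 in edgeR). Against the mean of the other ages, the 12-month level had a log2FC of 1.09 (SE 0.17, 95% interval 0.72 to 1.45, FDR 0.00873 in edgeR). These comparisons share libraries and are not independent of each other.

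The shared library held 151 CPM of Gfap (1081 reads), a value inside the 12-month range and above both other 6-month libraries. With all 9 libraries kept as labelled, the fall from 12 to 28 months was again called in edgeR (log2FC -1.30, FDR 0.033), whereas the rise from 6 to 12 months was not (log2FC 0.53, FDR 0.997). The rise was also not called with this library kept at 6 months only (log2FC 0.52, FDR 0.676 in edgeR) or at 12 months only (log2FC 0.88, FDR 0.0635 in edgeR). Nor was it called in 1 edgeR fit over the 3 ages (FDR 0.0832) or with every gene of at least 1 read tested (FDR 0.0731 in edgeR). The fall was not called in edgeR without 12 months sample 1 (FDR 0.149), 12 months sample 2 (FDR 0.31) or 28 months sample 3 (FDR 0.162). Its log2FC stayed between -1.50 and -1.19 as each library was left out. The contrast of 12 months with the mean of the other ages was not called in edgeR with 9 libraries as labelled (log2FC 0.92, FDR 0.996), with the shared library kept at 6 months only (log2FC 0.91, FDR 0.305), or without 12 months sample 1 (FDR 0.136) or sample 2 (FDR 0.123).

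**Figure D2:**
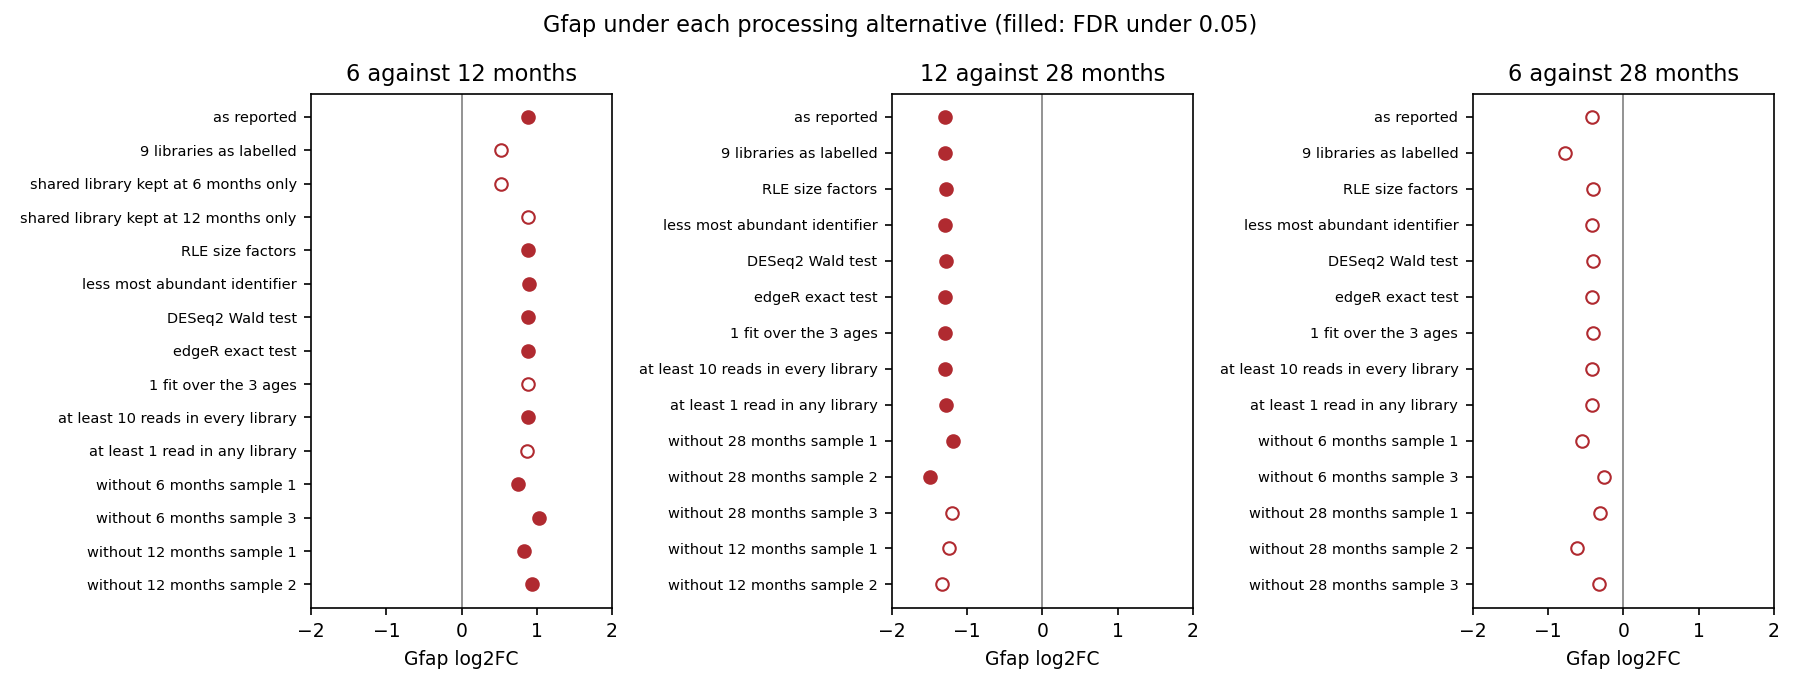
Gfap log2FC (horizontal axis) in the 3 comparisons of ages under each way of processing the counts (rows). Filled points had an FDR under 0.05, open points did not. All 14 alternatives put Gfap higher at 12 than at 6 months and all 13 put it lower at 28 than at 12 months, while the call at FDR 0.05 was made in 9 and 10 of them.

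Vim, the filament protein that astrocytes share with vessel and ependymal cells, was the scarcest of the 6 in reads. It was at 11.0 and 20.6 CPM at 6 months (101 and 180 reads), 27.3 and 22.8 CPM at 12 months (192 and 166 reads) and 14.0, 18.4 and 20.7 CPM at 28 months (113, 133 and 137 reads). The shared library was at 28.1 CPM (201 reads), the highest of the 8. Both 12-month libraries were above the libraries of the other ages, though narrowly, the closest values being 22.8 and 20.7 CPM. Counting error alone was 7.76 and 8.54% of these values. The 6-month pair overlapped the 28-month range.

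None of the age comparisons passed for Vim in edgeR. The log2FC was 0.66 from 6 to 12 months (95% interval 0.05 to 1.27, FDR 0.329 in edgeR), -0.50 from 12 to 28 months (95% interval -0.94 to -0.05, FDR 0.586 in edgeR) and 0.16 from 6 to 28 months (95% interval -0.43 to 0.75, FDR 0.951 in edgeR). With 101 to 201 reads per library, counting error alone was 7.05 to 9.95% of a value. The 6-month pair decided the first of these values. Without 6 months sample 3 the log2FC was 1.18, with an FDR of 0.00017 in edgeR that rested on a single 6-month library, and without 6 months sample 1 it was 0.28 (FDR 0.651 in edgeR). With the shared library kept at 6 months only it was 0.33 (FDR 0.819 in edgeR) and with 9 libraries as labelled 0.40 (FDR 0.997 in edgeR).

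S100b, the calcium-binding protein, was ordered 6, 28 and 12 months, with no overlap between any 2 ages. It was at 508 and 507 CPM at 6 months, at 875 and 838 CPM at 12 months, and at 605, 625 and 702 CPM at 28 months, each from 4418 to 6146 reads. The pair at 6 months differed by less than counting error, and the 12-month pair was the highest of the 8 libraries. The shared library, at 680.4 CPM, lay within the 28-month range and between the 6-month and 12-month libraries.

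The difference of S100b between 6 and 12 months was 1.68-fold and missed the threshold by little, with a log2FC of 0.75 (SE 0.15, 95% interval 0.42 to 1.08, FDR 0.0509 in edgeR). It was under the threshold with the Wald test of DESeq2 (FDR 0.00169) and with edgeR's exact test (FDR 0.0197), and above it with 9 libraries as labelled (log2FC 0.50, FDR 0.997 in edgeR). It was also above it with the shared library kept at 6 months only (log2FC 0.59, FDR 0.532 in edgeR) or at 12 months only (log2FC 0.64, FDR 0.238 in edgeR). From 12 to 28 months the log2FC was -0.40 (95% interval -0.75 to -0.06, FDR 0.571 in edgeR) and from 6 to 28 months 0.35 (95% interval -0.01 to 0.70, FDR 0.775 in edgeR). At 12 months against the mean of the other ages it was 0.57 (95% interval 0.29 to 0.86, FDR 0.0924 in edgeR).

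Of the 6 genes, Gfap, Vim and S100b thus had 12-month libraries above all libraries of 6 and 28 months, for Vim narrowly. Their sequences just upstream of the annotated start are shown so that they can be set side by side. Each is the 250 bases before the start of the gene in RefSeq on GRCr8, a later build than the rn4 build of the counts. They lie at chr10:88361662-88361911 on the minus strand for Gfap, chr17:81577011-81577260 on the plus strand for Vim and chr20:12381082-12381331 on the minus strand for S100b. Capitals mark matches, on either strand, to the TATA box (TATAAA), the CCAAT box, the AP-1 site (TGANTCA), the STAT site (TTCNNNGAA) and the NFI half-site (TTGGC). Matches of the CCAAT box and the NFI half-site can overlap.
Gfap: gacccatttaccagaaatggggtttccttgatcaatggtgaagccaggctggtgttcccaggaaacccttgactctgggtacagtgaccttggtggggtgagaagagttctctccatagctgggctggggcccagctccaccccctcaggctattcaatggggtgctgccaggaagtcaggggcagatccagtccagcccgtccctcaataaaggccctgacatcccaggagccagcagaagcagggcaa
Vim: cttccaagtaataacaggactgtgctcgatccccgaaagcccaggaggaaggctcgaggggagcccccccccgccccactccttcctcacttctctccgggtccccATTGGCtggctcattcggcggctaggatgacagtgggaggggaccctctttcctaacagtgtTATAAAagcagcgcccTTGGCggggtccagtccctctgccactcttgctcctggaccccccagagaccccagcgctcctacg
S100b: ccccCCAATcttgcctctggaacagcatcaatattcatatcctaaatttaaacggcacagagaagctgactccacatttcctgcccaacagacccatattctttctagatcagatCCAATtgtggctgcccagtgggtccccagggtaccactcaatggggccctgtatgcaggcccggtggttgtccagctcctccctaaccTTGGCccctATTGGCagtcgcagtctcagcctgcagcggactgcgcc
Of all 33469 upstream windows of this length in the table, 12.9% held the TATA box, 34% the CCAAT box, 6.34% the AP-1 site, 7.67% the STAT site and 40.3% the NFI half-site. The Gfap window held none of them. The Vim window held the TATA box starting at -82, the CCAAT box at -144 and the NFI half-site at -143 and -66, counted back from the start. The S100b window held the CCAAT box at -246, -135 and -38 and the NFI half-site at -47 and -37. No motif was found in all 3 windows, and a match is a description of letters only. The study itself lists Gfap as lower at 28 than at 12 months, from the libraries as labelled. It does not list Gfap as changed from 6 to 12 or from 6 to 28 months. It also ran a PCR assay on Gfap mRNA and reports the same expression profile from it as from its sequencing of the libraries as labelled. The primers and the 29 bases between them give a stretch of the transcript in which primer letters are in capitals (70 bases, the primers being 21 and 20 bases long).
Gfap amplicon: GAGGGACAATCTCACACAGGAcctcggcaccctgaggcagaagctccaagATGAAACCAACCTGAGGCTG

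**Figure D3:**
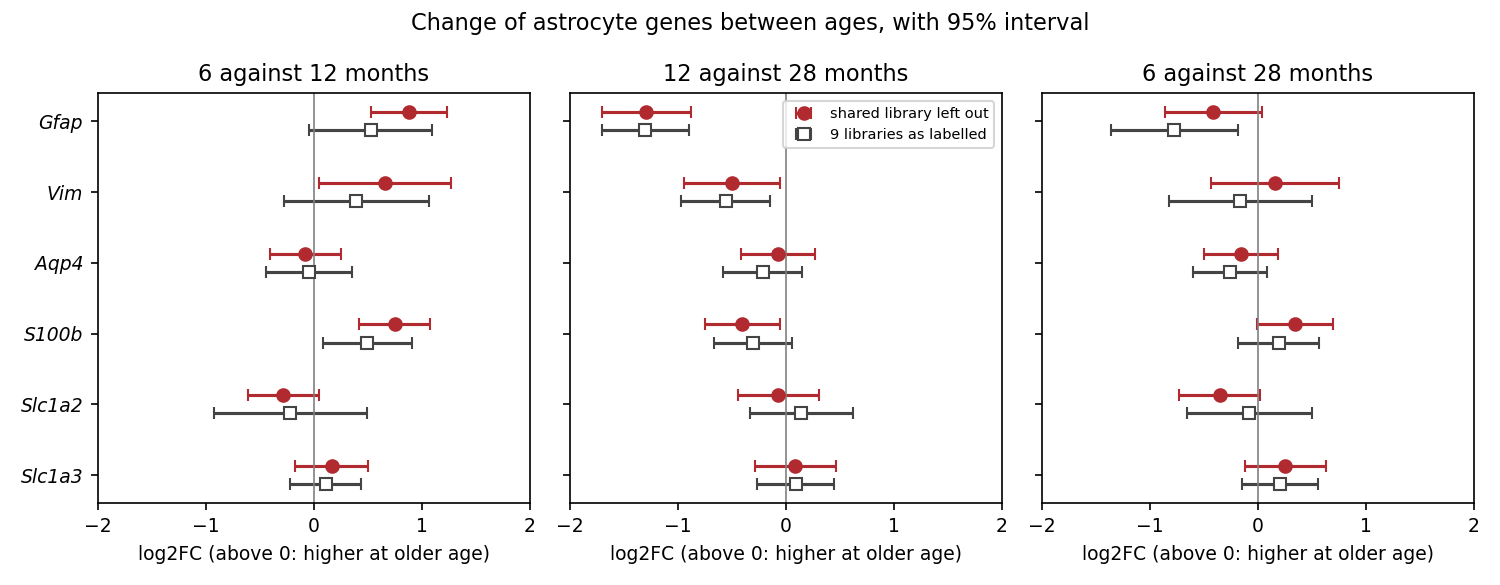
log2FC of the 6 genes (horizontal axis, above 0 is higher at the older age) with its 95% interval in each comparison of ages. Filled circles are the fits without the shared library, open squares the fits with 9 libraries as labelled. The Gfap interval of 12 against 28 months, -1.70 to -0.88, is the farthest from 0 in both fits.

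Aqp4, the water channel of the endfeet, was at 500.1 and 529.5 CPM at 6 months, 478 and 503 CPM at 12 months and 452, 498 and 437 CPM at 28 months. The 6-month pair was above the 28-month libraries in CPM, though by less than counting error, and the 12-month pair overlapped both other ages. Without TMM scaling the 6-month and 28-month libraries overlapped. The log2FC was -0.08 from 6 to 12 months (95% interval -0.40 to 0.25, FDR 0.858 in edgeR), -0.07 from 12 to 28 months (95% interval -0.42 to 0.27, FDR 0.942 in edgeR) and -0.15 from 6 to 28 months (95% interval -0.50 to 0.19, FDR 0.92 in edgeR). At 12 months against the mean of the other ages the Aqp4 interval, -0.29 to 0.29, leaves out a change of the size measured for Gfap. The shared library stood apart, at 633 CPM, above all 7 others.

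Slc1a2, the main glutamate transporter of the forebrain, was at 609 and 626 CPM at 6 months, 526 and 495 CPM at 12 months and 479.6, 557 and 411 CPM at 28 months. The 6-month pair was the highest in CPM, though not without TMM scaling, and the 12-month pair lay inside the 28-month range. No comparison of ages passed in edgeR, the log2FC being -0.28 from 6 to 12 months (95% interval -0.61 to 0.05, FDR 0.452), -0.07 from 12 to 28 months (95% interval -0.45 to 0.31, FDR 0.95) and -0.35 from 6 to 28 months (95% interval -0.73 to 0.02, FDR 0.791). The shared library had 295 CPM of Slc1a2 (2113 reads), under every other library, of which the lowest had 2726 reads. Keeping it at both ages moved the log2FC from 6 to 28 months to -0.08.

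Slc1a3, the transporter of radial glia and astrocytes, had the opposite order of ages, with 596 and 604 CPM at 6 months, 718 and 634 CPM at 12 months and 811, 613 and 720.3 CPM at 28 months. The 6-month pair was below all others, and the 12-month pair lay inside the 28-month range in CPM, though not without TMM scaling. The log2FC was 0.17 from 6 to 12 months (95% interval -0.17 to 0.51, FDR 0.675 in edgeR), 0.09 from 12 to 28 months (95% interval -0.28 to 0.46, FDR 0.932 in edgeR) and 0.25 from 6 to 28 months (95% interval -0.12 to 0.63, FDR 0.87 in edgeR). The shared library was at 669 CPM, within the range of the rest. Of the transporters and enzymes of the glutamate-glutamine cycle listed for this tissue (11 genes), only Slc1a2 and Slc1a3 could be paired with an identifier, and neither was called.

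Counted over the 6 genes, 1 was called in edgeR from 6 to 12 months, where 1.20% of all genes were called (191 of 15966), 0 from 6 to 28 months, where 0.206% were (33 of 16042), and 1 from 12 to 28 months, where 0.120% were (19 of 15840). In the contrast of 12 months with the mean of the other ages 1 was called, against 0.663% of all genes (108 of 16283). The called gene was Gfap each time. At an unadjusted p under 0.05 the numbers were 3, 0, 3 and 3 of 6, the 3 being Gfap, Vim and S100b, against 2167, 1035, 1216 and 1754 of all genes. From 6 to 28 months DESeq2 and edgeR's exact test also called 0 of the 6.

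With 9 libraries as labelled, edgeR called 0% of all genes from 6 to 12 months (485 had an unadjusted p under 0.05, S100b among them), 0.111% from 6 to 28 months, 0.0563% from 12 to 28 months and 0% in the contrast (740 at an unadjusted p under 0.05, with Gfap and S100b among them). Of the 6 genes, only Gfap from 12 to 28 months was called in these fits. The libraries of 6 and 12 months did not overlap for 5 of the 6 genes, all but Aqp4, beside 45.5% of all genes. For 6 and 28 months this held for 4 of 6 (Aqp4, S100b, Slc1a2 and Slc1a3) beside 21.9%, and for 12 and 28 months for 3 of 6 (Gfap, Vim and S100b) beside 24.6%. With so few libraries a lack of overlap is common among all genes. The median log2FC of the 6 was 0.41 from 6 to 12 months (-0.01 over all genes), 0.0029 from 6 to 28 months (-0.0074) and -0.24 from 12 to 28 months (0.0054).

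Ratios of reads between these genes within a library need no scaling between libraries. Gfap gave 12.1 and 14.8 reads per 100 Slc1a3 reads at 6 months, 21.5 and 22.8 at 12 months, and 6.47, 12.5 and 7.31 at 28 months. Gfap per 100 Aqp4 reads was 14.5 and 16.9 at 6 months, 32.3 and 28.8 at 12 months, and 11.6, 15.4 and 12.1 at 28 months. In both ratios the 12-month libraries stood above the others without overlap, and the shared library (22.5 per 100 Slc1a3 and 23.8 per 100 Aqp4) was above every 6-month and 28-month library.

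Other pairs behaved differently. Gfap per 100 Vim reads was 658 and 432 at 6 months, 565 and 634 at 12 months, and 375, 419 and 255 at 28 months. In this ratio the 6-month and 12-month libraries overlapped, and the 28-month libraries lay below both. Gfap per 100 S100b reads was 14.3 and 17.6 at 6 months and 17.7 and 17.3 at 12 months, so that these ages overlapped, and 8.68, 12.3 and 7.51 at 28 months, below all of them. S100b per 100 Slc1a3 reads was 85.1 and 83.9 at 6 months, 122 and 132 at 12 months and 74.6, 102 and 97.4 at 28 months. Slc1a2 per 100 Slc1a3 reads was 102 and 104 at 6 months, 73.3 and 78.1 at 12 months and 59.1, 90.9 and 57.1 at 28 months. The 6-month pair was above all others, and in the shared library the ratio was 44.1, the lowest of all. The 6 genes together summed to 2297 and 2376 CPM at 6 months, 2780 and 2637 CPM at 12 months, 2415, 2389 and 2343 CPM at 28 months and 2457 CPM in the shared library. The 12-month libraries were the highest, and they were so as well without Gfap and Vim (2598 and 2470 CPM, against 2213 to 2348 CPM in the other libraries). Of the genes left in that sum, only S100b was itself highest at 12 months (838 to 875 CPM, against 507 to 702 CPM at the other ages). The 12-month values of Aqp4, Slc1a2 and Slc1a3 lay inside the range of the other ages, so the sum does not show a shared peak.

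**Figure D4:**
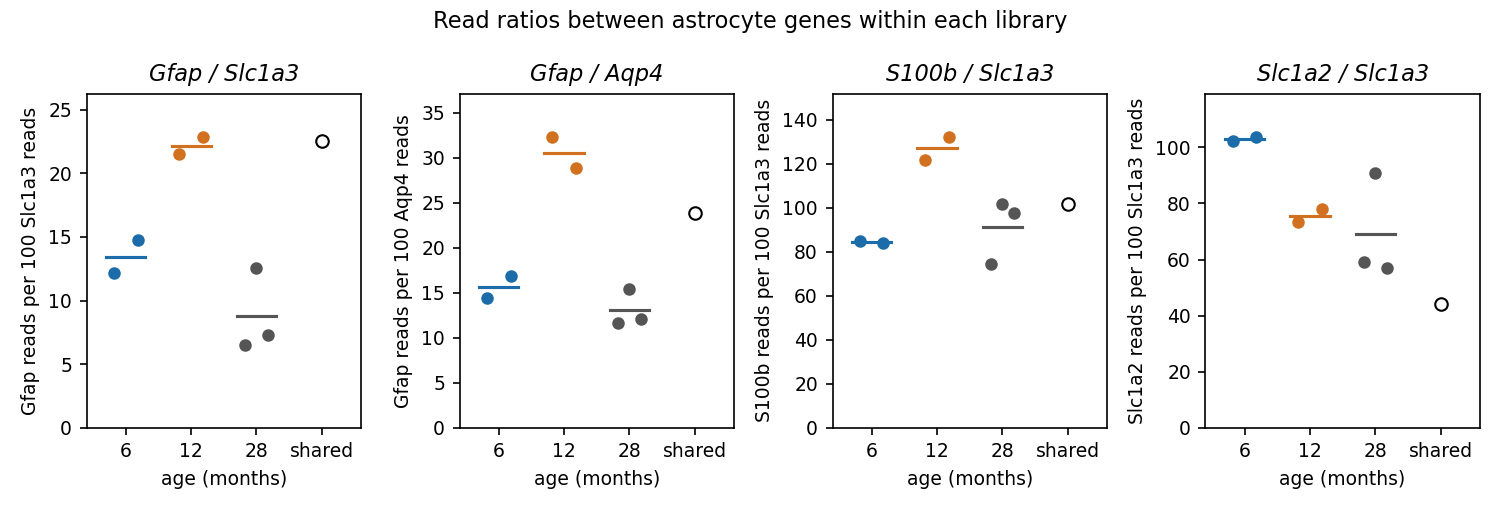
Reads of 1 gene per 100 reads of another within each library (vertical axes, from 0), by age in months. Filled points are libraries, bars the mean of an age, open points the shared library. Gfap per 100 Slc1a3 reads was 21.5 to 22.8 at 12 months and 6.47 to 14.8 at the other ages, and Slc1a2 per 100 Slc1a3 reads was highest at 6 months.

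Across the 8 libraries Gfap varied with Vim (r = 0.72), Aqp4 (r = 0.63) and S100b (r = 0.57) on log2(CPM + 1), and S100b with Vim (r = 0.69). These are descriptions over libraries that share their ages. Several rested on the shared library. Without it Aqp4 and Slc1a2 went from r = -0.43 to r = 0.88 and Vim and Aqp4 from r = 0.40 to r = 0.03, whereas Gfap and Vim went from 0.72 to 0.65. The transporters Slc1a2 and Slc1a3 had r = -0.40 with the shared library and r = -0.71 without it.

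Among 10968 genes with at least 20 reads on average, 137 could be named, and these names come mostly from lists the study drew up on the same libraries. The rankings that follow are among these named genes alone, and the number of genes of the whole pool with a higher r is given for the first and the last of each. The named genes most like Gfap over 8 libraries were RGD1306682 (r = 0.95), F1LTG5_RAT (r = 0.94), Tf (r = 0.92), E9PSV0_RAT, which the study describes as a complement C4 gene (r = 0.86), and Ifi27, an interferon-inducible gene (r = 0.85), with 2 and 36 genes of the pool higher. Tf is the symbol of transferrin, the iron carrier made by oligodendrocytes in brain, but the study's description of the same identifier is of another gene, so its identity is uncertain. Among named genes S100b was most like Pmm1, a phosphomannomutase (r = 0.98), D3ZVJ6_RAT (r = 0.94), D3ZQL1_RAT (r = 0.94), the MHC class II gene RT1-Ba (r = 0.87) and Ifi27 (r = 0.87), with 4 and 161 genes higher. The named genes nearest to Vim were E9PSV0_RAT (r = 0.79), D3ZVJ6_RAT (r = 0.79), D3ZQL1_RAT (r = 0.78), the MHC class II gene RT1-Bb (r = 0.75) and Gfap (r = 0.72), with 200 and 429 genes higher.

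Of the transporters, Slc1a2 was most like, among named genes, EPHA6_RAT, an ephrin receptor (r = 0.86), and Arc, an immediate early gene of neurons (r = 0.85). Next were Clstn1 (r = 0.84), Actr3 of the actin-branching complex (r = 0.81) and Abi2 (r = 0.75), with 185 and 625 genes of the pool higher. Leaving out the shared library, which had the lowest Slc1a2, gave r = 0.59, 0.68, 0.91, 0.72 and 0.56 in the same order. The named genes nearest to Slc1a3 were the chloride exchanger Clcn3 (r = 0.85), the proton pump accessory protein Atp6ap2 (r = 0.82), the mitochondrial fission factor Mff (r = 0.77) and the G protein subunit Gnai1 (r = 0.76), with 51 and 211 genes higher. For Aqp4, with 42 and 433 genes higher, the list was led by Tph1, a tryptophan hydroxylase (r = 0.83), which fell to r = 0.08 without the shared library, and went on with LOC100364907 (r = 0.80), RGD1311357 (r = 0.78), Gfap (r = 0.63) and D3ZP74_RAT (r = 0.63). Without the shared library these were 0.86, 0.52, 0.52 and 0.15 in the same order.

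Some markers of other cells were, like Gfap, highest at 12 months. The 7 genes of microglia and antigen presentation that could be named, of 13 listed, summed to 26.1 and 20.4 CPM at 6 months, 117 and 172 CPM at 12 months, 35.3, 46.8 and 32.3 CPM at 28 months and 113 CPM in the shared library. From 6 to 12 months 5 of the 7 rose in edgeR, all of the MHC class II pathway, with Cd74, the invariant chain of class II, at a log2FC of 2.65 (FDR 0.000601 in edgeR). From 12 to 28 months 6 fell in edgeR, the class II genes and Aif1, the microglial protein Iba1 (log2FC -1.60, FDR 0.0444 in edgeR). Aif1 was not called from 6 to 12 months (log2FC 0.71, FDR 0.237 in edgeR) and was at 4.88 CPM in the shared library, nearer to the 6-month libraries (5.66 and 5.16 CPM) than to the 12-month ones (8.97 and 8.81 CPM). Fcgr3a was called in no comparison. From 6 to 28 months none of the 7 was called in edgeR. Their sum was higher at 28 months, unlike Gfap (log2FC -0.41). The class II pathway genes were higher at 28 months, and Aif1 and Fcgr3a lower (log2FC -0.90 and -0.35). The study chose most of these names on the same libraries, so they are not independent evidence of a direction, and their part in the Gfap result was not tested.

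**Figure D5:**
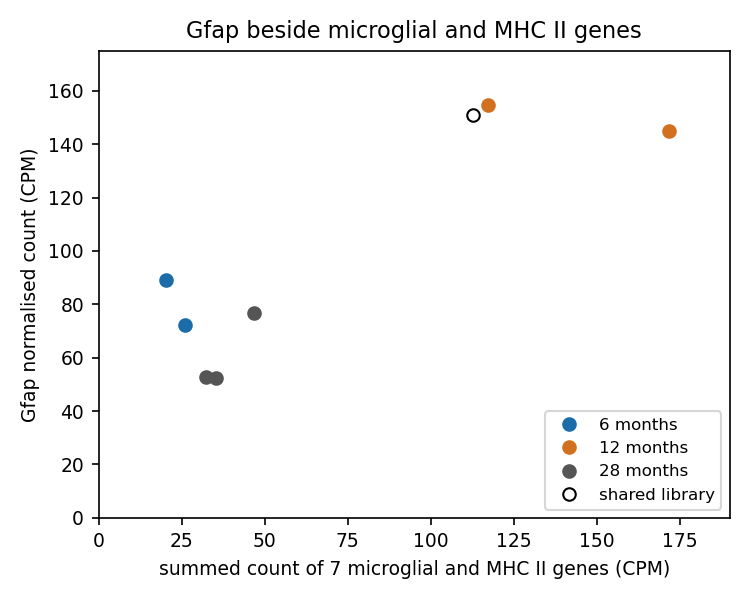
Gfap level (CPM, vertical axis) against the summed level of 7 microglial and MHC class II genes (CPM, horizontal axis) in 8 libraries, coloured by age, with the shared library open. The 12-month libraries and the shared library lie at 113 to 172 CPM on the horizontal axis and 145 to 155 CPM on the vertical axis, apart from the 5 libraries of 6 and 28 months.

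The complement gene E9PSV0_RAT, the only reactive astrocyte gene besides Gfap and Vim that could be named of 18 listed, rose from 6 to 12 months (log2FC 2.53, FDR 0.0266 in edgeR) and was not called from 12 to 28 months (log2FC -1.77, FDR 0.197 in edgeR). It rested on few reads, 7 to 9 at 6 months, 29 and 46 at 12 months, 6 to 17 at 28 months and 37 in the shared library. The blood and vessel genes Alb and LOC689064, a hemoglobin subunit, summed to 31.7 and 23.3 CPM at 6 months, 53.7 and 40.5 CPM at 12 months, 19.1, 22.0 and 29.7 CPM at 28 months and 71.9 CPM in the shared library, so they too were highest at 12 months. Of them Alb, which encodes serum albumin, rose from 6 to 12 months (log2FC 3.88, FDR 0.0141 in edgeR), on 3 reads in each 6-month library and 23 and 51 reads at 12 months, so that the size of its change is poorly known. Tf, the only oligodendrocyte symbol paired, was at 160.1 and 128 CPM at 6 months, 207 and 209.6 CPM at 12 months and 85.1 to 127 CPM at 28 months. It was not called from 6 to 12 months (FDR 0.217 in edgeR) or from 12 to 28 months (log2FC -0.95, FDR 0.0861 in edgeR).

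The 4 neuronal genes summed to 1067 and 1115 CPM at 6 months, 1133 and 922 CPM at 12 months and 1102 to 1208 CPM at 28 months, and none was called in any comparison. Lrp2 and Trh, the only 2 symbols paired of 6 listed with choroid plexus and ependyma, summed to 0.619 to 7.71 CPM, and neither was called. From 12 to 28 months the log2FC was -1.56 for Lrp2 (FDR 0.672 in edgeR) and -2.53 for Trh (FDR 0.235 in edgeR). The study lists a transcript of each as changed between these ages, from the libraries as labelled. It describes Trh as prothyroliberin, so Trh does not mark this tissue. With the other symbols unpaired, this is a weak check of choroid plexus and ependyma. Reads that mapped outside genes were 57.1 and 54.0% of mapped reads at 6 months, 47.5 and 50.6% at 12 months, 50.4, 60.0 and 53.7% at 28 months and 59.6% in the shared library. The parts of these cell types and read shares in the levels of the 6 genes were not tested.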

How the data were processed

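Cerebral cortex RNA of male BN rats was sequenced from libraries of 2 pooled rats. The authors mapped the SOLiD reads with Bowtie and counted them per Ensembl gene with HTSeq, and the submitters' processing notes name the rn4 build. Program versions and the strand setting are not given in the sources used here, so how antisense reads were counted is not known. The deposited values are raw counts, 1 file per library, without normalization. Reads outside genes (47.5 to 60.0% of mapped reads) and ambiguous reads (0.0356 to 0.0794%) were left out of library sizes.

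Symbols came from the rule for the 6 genes and from the study's supplementary tables for 141 other identifiers. The RefSeq gene table pairs none of the identifiers. Of 105 distinct symbols in the marker lists, 23 had an identifier. The genes named are the 6, the 5 named genes most correlated with each on log2(CPM + 1) where the mean was 20 reads or more, and marker genes a result turns on. Some genes that this rule would name are not reported here. The members and lists were chosen with earlier results of these data known.

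Each pair of ages was fitted separately with edgeR 4.0.16 (R 4.3.3), using TMM, a minimum of 5 reads in 1 or more of the libraries compared, the quasi-likelihood test (two-sided) and Benjamini-Hochberg FDR at 0.05. The contrast of 12 months with the mean of 6 and 28 months used 1 fit over 7 libraries. The shared library was left out of these fits, because 1 library cannot stand for both ages. Alternatives kept it in, used RLE factors, library sizes without the most abundant identifier, DESeq2 1.42.0, edgeR's exact test, 1 fit over the 3 ages, other filters (at least 10 reads in every library, at least 1 read in any) or left out each library. The fits were tested on simulated data. Each library is a separate pool of rats, so p-values rest on the spread between pools. With so few libraries, edgeR and DESeq2 estimate that spread partly from other genes. Counting error assumes independent reads. Upstream sequences are from RefSeq (GRCr8), in which all 6 genes had at least 1 window, and motif matches were searched on both strands. Figures were drawn with matplotlib 3.10.9 in Python 3.11.15.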

Additional observations from a re-analysis of the deposited data

How the results depend on the processing

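The log2FC of Gfap kept its direction under all alternatives of all comparisons. From 6 to 12 months the number of the 6 genes called, 1 as reported, was 0 with 9 libraries as labelled, with the shared library at 6 months only, with it at 12 months only, with 1 fit over the 3 ages (Gfap FDR 0.0832 in edgeR) and with at least 1 read in any library (FDR 0.0731), and 2 with DESeq2 and with edgeR's exact test, where S100b was added. Leaving out 1 library gave 1 to 3. From 6 to 28 months it was 0 under every alternative. From 12 to 28 months it was 0 to 1 when a library was left out and 1 under all other alternatives. In the contrast of 12 months with the other ages, 1 as reported, it was 0 with 9 libraries as labelled and with the shared library at 6 months only, 2 with DESeq2 and with at least 1 read in any library, and 0 to 1 when a library was left out, the 0 being without 12 months sample 1 or 2. Where an age was left with 1 library, that library was assumed to vary like the others.

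Counts over all genes moved by more than 1.5 times. From 6 to 12 months 191 became 0 with 9 libraries, 19 and 109 with the shared library at 6 or 12 months only, 450 with the exact test, 112 with at least 1 read and 360 to 883 with a library left out. From 6 to 28 months 33 became 18 with 9 libraries, 70 with DESeq2, 131 with the exact test, 199 with at least 1 read and 0 to 137 with a library left out. From 12 to 28 months 19 became 9, 82, 117, 139 and 0 to 142 in the same order. In the contrast 108 became 0 with 9 libraries, 21 and 44 with the shared library at 6 or 12 months only, 193 with DESeq2, 292 with at least 1 read and 0 to 148 with a library left out.

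Values that changed sign were small and none was called. From 6 to 12 months Aqp4 was at a log2FC of 0.052 with the shared library at 12 months. From 6 to 28 months Vim was at -0.16 with 9 libraries, and -0.22 (without 6 months sample 1) to 0.68 with a library left out. From 12 to 28 months Slc1a2 was at 0.15 with 9 libraries and at -0.19 to 0.031 with a library left out (above 0 without 28 months sample 3), and Slc1a3 at -0.0030 (without 28 months sample 1) to 0.19. In the contrast Aqp4, at -0.0015 as reported, was at 0.088 with 9 libraries, 0.14 with the shared library at 12 months, 0.0054 without the most abundant identifier, 0.0056 with at least 10 reads in every library and at -0.033 to 0.030 with a library left out, above 0 for 3 of the libraries. Slc1a2 was at 0.041 with the shared library at 6 months, and Slc1a3 at -0.060 to 0.13 with a library left out, under 0 without 28 months sample 2 or 12 months sample 1. Ranking by Spearman's rho kept 2 of the 5 named genes most like Aqp4, 3 for S100b, 2 for Slc1a2 and at least 4 for the others. The causes were not tested. No paired analysis was possible because the labels number the libraries 1 to 9 across the series, and the sample numbers used here only name libraries within an age. With 101 to 201 reads per library, Vim is limited by depth more than the other genes.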

Other observations

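The shared library differed from the other 7 in how these genes stood to each other. It was the highest of 8 in Aqp4 (633 CPM, the others 437 to 529.5 CPM) and in Vim (28.1 CPM, the others 11.0 to 27.3 CPM), the lowest in Slc1a2 (295 CPM, the others 411 to 626 CPM), and inside the range of the others in Gfap, S100b and Slc1a3. On Gfap and the class II genes its values were near those of the 12-month libraries, while on S100b (680.4 CPM) and Aif1 (4.88 CPM) they were outside the 12-month range (838 to 875 CPM and 8.81 to 8.97 CPM). No age was inferred from these values.

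In CPM the 28-month libraries were the least alike in Gfap and the transporters. 28 months sample 2 had the highest Gfap (76.9 CPM, the other two 52.5 and 52.7 CPM) and Slc1a2 (557 CPM, the other two 479.6 and 411 CPM) and the lowest Slc1a3 (613 CPM, the other two 811 and 720.3 CPM) of its age, and also the highest share of reads outside genes (60.0%, the other two 50.4 and 53.7%). Gfap per 100 Slc1a3 reads was 12.5 in it and 6.47 and 7.31 in the other two.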
